A study of Mus musculus with 9 samples.

Results

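Colony-stimulating factors and interleukins are secreted proteins through which cells call up, feed and instruct leukocytes. The genes described here are the colony-stimulating factors Csf1, Csf2 and Csf3, the interleukins Il1a, Il1b, Il6, Il33 and Il34, and Lif, which were looked up by gene name in the deposited table of gene counts from MyC-CaP cells treated with asporin (ASPN). Of these 9 genes, 8 were among the 15384 genes of the table, and Il1b was not among its rows and was not analysed here. The cells are a prostate cancer line of the mouse, and ASPN is a small leucine-rich proteoglycan made by stromal fibroblasts. Before recombinant mouse ASPN was given at 100 ng/mL, serum and calcium were withheld from all cells, and 3 libraries each were made at time 0 and 12 and 24 hours later. ASPN is also the labelled treatment at time 0, and no library came from untreated cells of 12 or 24 hours, so an effect of ASPN and one of the time in culture cannot be told apart. The labels call the libraries of a time biological replicates, but the protocol describes wells plated in triplicate of this 1 cell line, so p-values measure the spread between such wells.

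Several of these ligands share receptors. CSF1 and IL-34 bind CSF1R, the receptor on which macrophages depend, although their sequences are unrelated, and IL-34 also binds PTPRZ1. G-CSF, the product of Csf3, drives the production of neutrophils, and GM-CSF, the product of Csf2, acts on granulocytes, macrophages and dendritic cells. IL-6 and LIF belong to a family that signals through the shared subunit gp130, encoded by Il6st, to STAT3, with IL-6 using IL6RA and LIF using LIFR beside it. IL-1α, IL-1β and IL-33 belong to the IL-1 family, and IL-33 is held in the nucleus of epithelial cells and acts as an alarm signal through ST2, encoded by Il1rl1, once cells are damaged. Many of these genes are known targets of NF-kB, and many of their mRNAs are short-lived because proteins of the ZFP36 family bind AU-rich elements in the 3′ untranslated region (3′ UTR).

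The total counts of the libraries were 41881191 to 52993821, and the floor of 3 counts used here stood at 0.055 to 0.0735 CPM (read counts scaled to the library total and by the TMM method over the 9 libraries). CPM is relative to all mRNA, and a change in the number of cells that make an mRNA cannot be told apart from a change in mRNA per cell. Of the markers of the line, Krt8 was at 25.4 ± 1.08 CPM (SD, n = 3) at time 0, whereas the epithelial markers Epcam and Cdh1 were near absence, with 0 to 1 and 0 to 10 counts per library, and Krt18 had 2 to 22. The label "epithelial-like" was therefore borne by Krt8 but not by these markers. The 8 leukocyte markers summed to 0.394 to 0.943 CPM in the time 0 libraries, 0.415 to 0.666 after 12 hours and 0.686 to 0.767 after 24 hours, most of it from Cd68 (12 to 37 counts per library), while Itgam and Cd3e had 0 or 1 count and 3 of the 8 had no row. The 6 fibroblast markers summed to 12.9 to 14.1, 12.2 to 12.5 and 9.12 to 10.3 CPM at the 3 times, of which Pdgfra made up most, and the 3 endothelial markers summed to 0.0207 to 0.124 CPM over the 9 libraries. TMM factors were 1.04 to 1.07 at time 0 and 12 hours and 0.898 to 0.911 at 24 hours. The part of these shifts in the results at 24 hours was not tested beyond the other scalings tried.

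The bases in front of Csf1, Lif and Il6 are shown because these genes stand for different courses in the data, a rise that receded (Csf1), a rise that was largely kept (Lif) and mRNA at or near 0 (Il6). The table of promoters, from RefSeq on GRCm38.p6, held 300-base windows (250 before to 50 after the start) for 7 of the 9 genes, and none for Csf3 and Il34. Each line runs from base -250 to base -21 relative to the start of the gene in RefSeq, 5′ to 3′ on the strand of the gene, and capitals mark matches to the 10-letter NF-kB consensus, to TGANTCA, the AP-1 motif, and to TTNNGCAA, a C/EBP motif, on either strand.
Csf1 (chr3:107760490-107760719, minus strand): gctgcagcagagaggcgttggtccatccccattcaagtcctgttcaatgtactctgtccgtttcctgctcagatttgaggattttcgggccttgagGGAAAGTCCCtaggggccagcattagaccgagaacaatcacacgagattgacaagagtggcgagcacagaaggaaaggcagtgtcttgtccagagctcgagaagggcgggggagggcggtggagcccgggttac
Lif (chr11:4257318-4257547, plus strand): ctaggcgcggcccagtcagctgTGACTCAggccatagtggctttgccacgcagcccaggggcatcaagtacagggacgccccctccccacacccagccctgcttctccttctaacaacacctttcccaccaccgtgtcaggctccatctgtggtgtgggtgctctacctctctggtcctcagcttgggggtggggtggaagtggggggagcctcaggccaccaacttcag
Il6 (chr5:30012864-30013093, plus strand): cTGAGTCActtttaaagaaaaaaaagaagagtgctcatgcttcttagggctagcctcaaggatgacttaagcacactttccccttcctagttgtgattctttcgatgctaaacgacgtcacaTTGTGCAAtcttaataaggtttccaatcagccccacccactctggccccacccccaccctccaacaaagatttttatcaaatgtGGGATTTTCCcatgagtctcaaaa
In these stretches Csf1 held 1 NF-kB match, at -154 to -145, Lif held 1 TGANTCA match, at -228 to -222, and Il6 held 1 match to each of the 3 motifs, with that to NF-kB at -44 to -35. None of these matches overlapped. In all 32851 windows of the table, 4.51% held the NF-kB consensus, 7.81% held TGANTCA and 10.8% held TTNNGCAA. Among the other windows, that of Csf2 held TTNNGCAA once (-145 to -138), that of Il1a held TGANTCA once (-12 to -6), 1 of the 2 windows of Il33 held TTNNGCAA once (-85 to -78), and that of Il1b held none of the 3. A match of letters does not show that a factor binds there.

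The 3′ UTRs set the genes apart along another line. The AU-rich heptamer TATTTAT was counted in the longest annotated 3′ UTR of each gene (GENCODE M21, GRCm38), where 27.7% of 15182 genes of the table held it at least once and 9.95% held it 2 or more times. Of the 9 genes, 7 held it: Csf2 had 9 copies (overlapping ones counted) in 317 bases, Lif had 5 in 3180, Il1a had 3 in 1101, Il1b had 3 in 459, Csf3 had 2 in 669, Csf1 had 1 in 2111 and Il6 had 1 in 1668. Il33 and Il34, which of the 5 tested genes differed least from time 0 at 12 and at 24 hours, had 0 in 1677 and 605 bases. Whether the number of copies goes with the changes over time was not tested. The 30 bases with the most copies are printed for the 3 genes that rose and for Csf2, with the heptamer in capitals.
Csf3 (chr11:98702988-98703017, plus strand): gttTATTTATctctatttaaTATTTATgca
Lif (chr11:4270477-4270506, plus strand): gtcTATTTATtactatgtccTATTTATatt
Csf1 (chr3:107742910-107742939, minus strand): acatactgccacTATTTATtgtgggccctg
Csf2 (chr11:54247325-54247354, minus strand): taaaTATTTATTTATTTATTTATTTATttt
The median 3′ UTR of the table had 1221 bases, so that Csf2, Csf3, Il1a and Il1b held their copies in less than the usual length.

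Csf1, Csf3 and Lif rose after 12 hours with ASPN and were still higher than at time 0 after 24 hours. After 12 hours Csf3 stood at a log2 fold change of 5.02 (32.5-fold), Csf1 of 2.50 (5.67-fold) and Lif of 1.94 (3.85-fold), and after 24 hours these 3 stood at 5.57 (47.4-fold), 1.36 (2.56-fold) and 1.59 (3.02-fold). Il34, the most abundant of these mRNAs per length of exons, was 1.4-fold higher at 12 hours and 1.09-fold higher at 24 hours, both below the threshold, and Il33 did not pass it at either time. Csf2, Il1a and Il6 had 3 counts or fewer in every library. All adjusted p-values come from the quasi-likelihood test of edgeR, corrected by Benjamini-Hochberg over every tested gene, and a gene was called when this p was 0.05 or less and the change at least 1.5-fold. At 12 hours 3 of the 5 genes with enough counts to be tested were called, all higher, where 1.60% of all 11410 tested genes were called, 1.5% higher and 0.0964% lower. Csf3 passed the filter on low counts only through the later libraries, in which it is high, so its place among the called genes was tied to its change and the counts and medians of the 5 are a description. Of the other 4, Csf1 and Lif were called at both times. At 24 hours the same 3 genes were called higher, where 28.8% of 11444 tested genes were called, 12.0% higher and 16.8% lower (1374 and 1924 genes, against 698 and 3008 with total-count scaling and 1456 and 1454 after a correction for length and GC content). By the adjusted p alone, 4 of the 5 passed at each time, as did 10.3% and 70.9% of all tested genes. All libraries stood above time 0 for 4 of the 5 at 12 hours and again at 24 hours, where this held for 13.7% and 35.9% of all genes, and all stood below it for 0 and 1 (Il33), where this held for 13.4% and 38.0%. The median log2 fold change of the 5 genes was 1.94 at 12 hours and 1.36 at 24 hours, beside -0.00 and -0.02 for all tested genes, and the genes were chosen with earlier results of these data known.

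**Figure D1:**
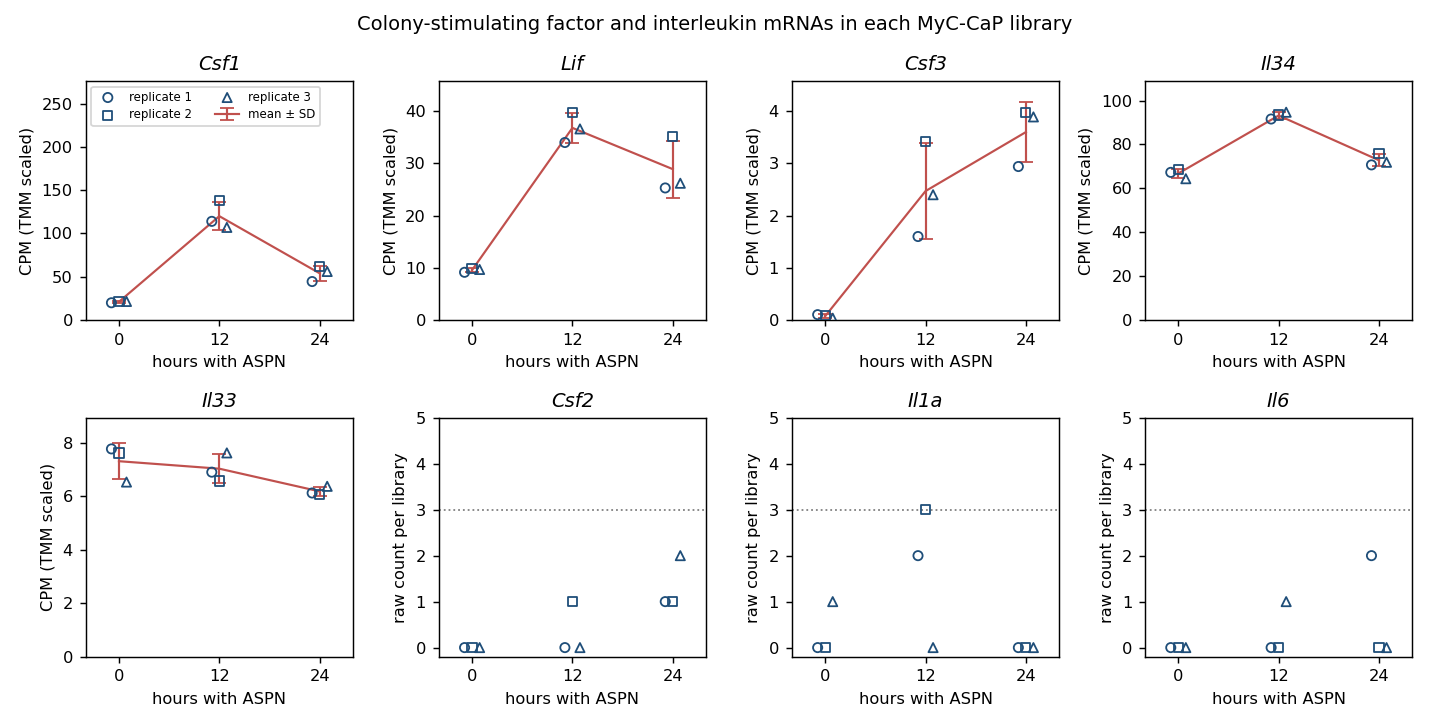
Level of each mRNA in each library (vertical axis: TMM-scaled CPM for Csf1, Lif, Csf3, Il34 and Il33, raw counts for Csf2, Il1a and Il6) against hours with ASPN (horizontal axis). Open symbols are libraries, red lines and bars are means ± SD (n = 3), and the dotted line is the floor of 3 counts. Csf1, Lif and Csf3 at 12 and 24 hours lie above every time 0 library, and no count of Csf2, Il1a or Il6 exceeds 3.

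Of the ligands of CSF1R, Csf1 (ENSMUSG00000014599.10; chromosome 3, 107741048 to 107760469 in GRCm38, minus strand) had 20, 21.8 and 21.5 CPM in the 3 libraries of time 0, 114, 138 and 107 at 12 hours, and 44.5, 61.5 and 56.1 at 24 hours. The 3 groups did not overlap, with 12 hours highest and 24 hours in between. Csf1 was called at 12 hours (log2 fold change 2.50, standard error 0.07, edgeR adjusted p = 2.8e-13) and at 24 hours (1.36, standard error 0.10, edgeR adjusted p = 3.4e-08). It was also the 1 gene of the 5 that was called between 12 and 24 hours, with a log2 fold change of -1.13 (standard error 0.10, edgeR adjusted p = 4.5e-07), where 25.7% of 11394 tested genes were called, 10.4% higher and 15.3% lower (1184 and 1740 genes, against 484 and 2830 with total-count scaling and 1285 and 1248 after the length and GC correction). By the adjusted p alone 4 of the 5 passed between these times, beside 71.3% of all genes. The libraries of 24 hours stood wholly below those of 12 hours for 3 of the 5 and wholly above for 0, as they did for 38.1% and 35.8% of all genes. Ranked from the highest log2 fold change among all tested genes, Csf1 stood at place 22 at 12 hours and at place 182 at 24 hours. By the 2 log2 fold changes against time 0, which share the time 0 libraries, the nearest of 10504 other genes with a mean of at least 50 counts at some time was Tnfaip3, the NF-kB feedback inhibitor A20, with 2.20 and 1.45 (Euclidean distance 0.32), followed by the epithelial transcription factor Elf3, with 2.09 and 1.33 (distance 0.41).

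Il34 (ENSMUSG00000031750.15; chromosome 8, 110741829 to 110805924, minus strand) had 67.3, 68.7 and 64.4 CPM at time 0, 91.6, 93.4 and 94.7 at 12 hours, and 70.7, 75.9 and 71.9 at 24 hours. Its libraries of 12 hours stood above all others, and those of 24 hours lay just above time 0. The log2 fold change was 0.48 at 12 hours (standard error 0.04, edgeR adjusted p = 4.8e-08) and 0.13 at 24 hours (standard error 0.05, edgeR adjusted p = 0.028), both short of 1.5-fold. From 12 to 24 hours it was -0.34 (standard error 0.04, edgeR adjusted p = 5.2e-06), also short of 1.5-fold. With scaling by total counts in place of TMM, which put the median over every tested gene at -0.24 on the log2 scale at 24 hours, the value of Il34 at 24 hours against time 0 turned to -0.10, and that from 12 to 24 hours became -0.56. The edgeR adjusted p at 24 hours was above 0.05 in 4 settings, at 0.0884 with total-count scaling, 0.0677 after the length and GC correction, 0.0965 without replicate 3 of time 0 and 0.0935 without replicate 2 of 24 hours. The exons of Il34 overlap those of the antisense genes Gm15894 and Gm15895, and the strand setting of the counting is not given in the sources used here, so reads of Il34 and of these genes may not be separable. The genes nearest to Il34 by their 2 log2 fold changes were the adaptor protein genes Bcar1 (0.47 and 0.11, distance 0.03) and Nedd9 (0.44 and 0.14, distance 0.05).

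Set against each other per length of exons (CPM per kilobase), Il34 exceeded Csf1 in each of the 9 libraries, and the distance narrowed at 12 hours. Il34 was at 34.1 ± 1.12 CPM per kilobase (SD, n = 3) at time 0, 47.6 ± 0.793 at 12 hours and 37.2 ± 1.39 at 24 hours, and Csf1 was at 4 ± 0.18, 22.6 ± 3.08 and 10.2 ± 1.64. The ratio of Csf1 to Il34 within a library was 0.11, 0.118 and 0.124 at time 0, 0.463, 0.548 and 0.417 at 12 hours, and 0.234, 0.3 and 0.289 at 24 hours. These 3 ranges did not overlap. The summed level of both ligands was 38.1 ± 1.12 CPM per kilobase (SD, n = 3) at time 0, 70.2 ± 3.05 at 12 hours and 47.4 ± 2.94 at 24 hours. The lengths are those of all annotated exons together, so a gene that uses short isoforms reads low. The receptor Csf1r itself had 0 to 4 counts per library, and Ptprz1 had 0 or 1, so mRNA of either receptor was not detectable above the floor in 8 and 9 of the 9 libraries.

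**Figure D2:**
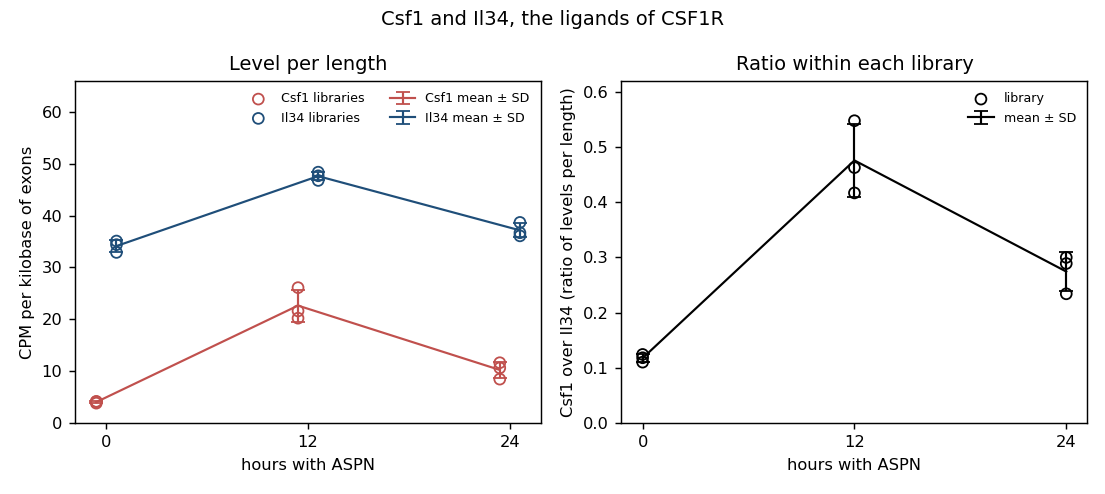
Left, Csf1 (red) and Il34 (blue) levels in CPM per kilobase of exons against hours with ASPN; right, the ratio of both levels within each library. Circles are libraries and lines with bars are means ± SD (n = 3). Il34 stays above Csf1 at each time, and the ratio goes from a mean of 0.117 at time 0 to 0.476 at 12 hours and 0.274 at 24 hours.

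Csf3 (ENSMUSG00000038067.2; chromosome 11, 98701263 to 98703629, plus strand) had the largest fold changes of the 5 tested genes, from mRNA that was barely counted. It had 5, 4 and 2 counts in the libraries of time 0, 73, 159 and 105 at 12 hours, and 120, 192 and 184 at 24 hours, which is 0.0754 ± 0.0347, 2.47 ± 0.913 and 3.6 ± 0.576 CPM (SD, n = 3 each). Every library of 12 and 24 hours was above time 0, and those of 12 and 24 hours overlapped. The log2 fold change was 5.02 at 12 hours (standard error 0.41, edgeR adjusted p = 1.7e-07) and 5.57 at 24 hours (standard error 0.32, edgeR adjusted p = 4.6e-09), place 6 and place 7 among all tested genes. Because time 0 rests on 11 counts in all, the ratio of summed counts was also taken, which was 33.7 at 12 hours (exact 95% interval 18.6 to 68.2) and 49.4 at 24 hours (27.4 to 99.7), intervals that cover counting error only. From 12 to 24 hours the log2 fold change was 0.57 (standard error 0.22, edgeR adjusted p = 0.037), just short of 1.5-fold. This last value rested on single libraries, as it was 0.33 (edgeR adjusted p = 0.165) without replicate 1 of 12 hours, and 0.87 and 0.69, then called, without replicate 2 of 12 hours or replicate 1 of 24 hours. Its edgeR adjusted p was also 0.0798 to 0.117 without replicate 3 of 12 hours or replicate 2 or 3 of 24 hours, and total-count scaling gave 0.34 (edgeR adjusted p = 0.185) and the length and GC correction 0.44 (edgeR adjusted p = 0.0827). It was called, at 0.59 in both, with upper-quartile factors (edgeR adjusted p = 0.0282) and with the replicate block (edgeR adjusted p = 0.00507), although the numbers do not pair the libraries. The genes nearest to Csf3 were the adhesion molecule gene Vcam1 (4.90 and 5.57, distance 0.12) and the neutrophil chemokine gene Cxcl5 (5.37 and 5.66, distance 0.36).

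Csf2 (chromosome 11, 54247271 to 54249667), the third colony-stimulating factor, had 0 counts in the 3 libraries of time 0, 0, 1 and 0 at 12 hours, and 1, 1 and 2 at 24 hours. All of these are below the floor of 3 counts, so that Csf2 mRNA was not detectable at this depth at any time and no fold change is given. Its exons overlap those of the antisense gene Gm12223.

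Within the IL-6 family, Lif (ENSMUSG00000034394.14; chromosome 11, 4257557 to 4272514, plus strand) had 9.15, 9.9 and 9.69 CPM at time 0, 34, 39.8 and 36.6 at 12 hours, and 25.3, 35.2 and 26.2 at 24 hours. All 6 later libraries were above time 0, while those of 12 and 24 hours overlapped through replicate 2 of 24 hours. Lif rose by a log2 fold change of 1.94 at 12 hours (standard error 0.07, edgeR adjusted p = 1.8e-12) and 1.59 at 24 hours (standard error 0.11, edgeR adjusted p = 3.6e-08). Between 12 and 24 hours it differed by -0.33 (standard error 0.10, edgeR adjusted p = 0.012), short of 1.5-fold, and it moved with the setting, to -0.10 (edgeR adjusted p = 0.34) once length and GC content were corrected for and to -0.55 with total-count scaling. Without replicate 2 of 24 hours it was -0.50, and the adjusted p was 0.0675 by DESeq2 and 0.0582 and 0.0744 by edgeR without replicate 2 of 12 hours or replicate 3 of 24 hours. The genes nearest to Lif were Ifngr2, a subunit of the interferon gamma receptor (1.91 and 1.70, distance 0.11), and again Tnfaip3 (distance 0.29).

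Il6 (chromosome 5, 30013114 to 30019981), which shares gp130 with Lif, had 3 counts in the 9 libraries together, 1 in replicate 3 of 12 hours and 2 in replicate 1 of 24 hours. With 7 libraries at 0 and none above the floor of 3 counts, Il6 mRNA was not detectable at any time. Of the other ligands of this family on the list, Clcf1 was called at 24 hours, with 11.3 ± 2.04 CPM (SD, n = 3) at time 0, 13.8 ± 0.752 at 12 hours and 28.5 ± 2.24 at 24 hours (log2 fold change 1.33, standard error 0.11, edgeR adjusted p = 1.4e-07). Ctf1, which encodes cardiotrophin-1, went the other way at 24 hours, from 10.1 ± 0.865 CPM (SD, n = 3) at time 0 to 5.81 ± 1.32 (log2 fold change -0.79, standard error 0.14, edgeR adjusted p = 2.1e-04). Il11 had 9 to 42 counts per library and was not called in any comparison, and Osm had 0 or 1.

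In the IL-1 family, Il33 (ENSMUSG00000024810.16; chromosome 19, 29925114 to 29960718, plus strand) had 7.78, 7.63 and 6.54 CPM at time 0, 6.91, 6.58 and 7.63 at 12 hours, and 6.13, 6.06 and 6.38 at 24 hours. Time 0 and 12 hours overlapped, and the 24 hour libraries lay narrowly below the rest. The log2 fold change was -0.05 at 12 hours (standard error 0.10, edgeR adjusted p = 0.83) and -0.24 at 24 hours (standard error 0.10, edgeR adjusted p = 0.056), and from 12 to 24 hours it was -0.17 (standard error 0.10, edgeR adjusted p = 0.14). At 24 hours 38.0% of all tested genes had libraries wholly below time 0, so the position of Il33 was a common one. With total-count scaling Il33 was at -0.46 at 24 hours (edgeR adjusted p = 0.00145) and at -0.39 from 12 to 24 hours (edgeR adjusted p = 0.00267), and after the length and GC correction at -0.37 (edgeR adjusted p = 0.00543) and -0.28 (edgeR adjusted p = 0.02), all short of 1.5-fold. The genes nearest to it were Zbtb33 and Spr, both at a distance of 0.01.

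Il1a (chromosome 2, 129299610 to 129309972) had 0, 0 and 1 counts at time 0, 2, 3 and 0 at 12 hours, and 0 in the 3 libraries of 24 hours. No library exceeded the floor of 3 counts. Its exons overlap those of Gm14023 on the other strand. Counts of the antagonist Il1rn were 2, 0 and 0 at time 0 and 3, 1 and 6 at 12 hours. At 24 hours they were 6, 10 and 4, all above time 0, but Il1rn was too low to be tested. The decoy receptor Il1r2 had 0 to 3 counts per library.

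**Figure D3:**
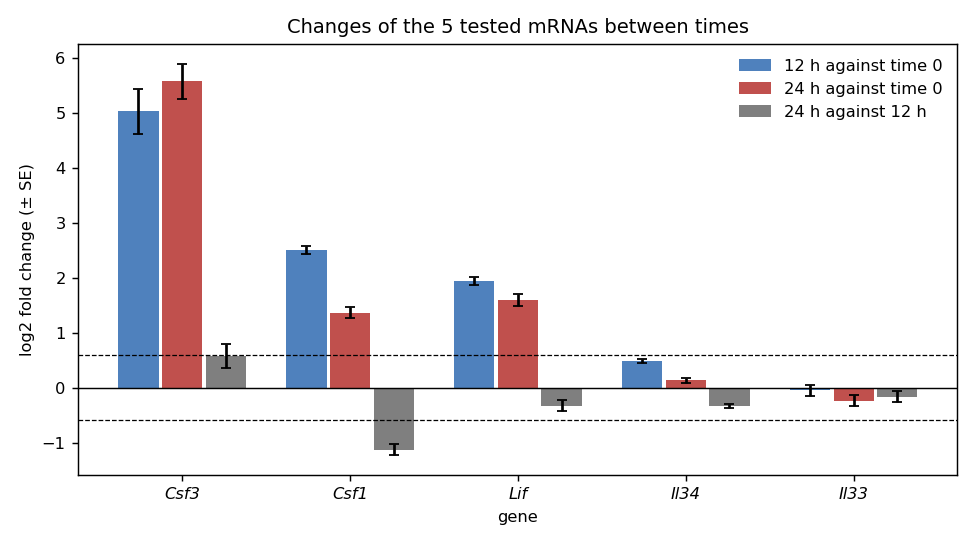
Log2 fold changes (vertical axis, bars ± SE from edgeR) of the 5 tested mRNAs (horizontal axis) for 12 hours against time 0 (blue), 24 hours against time 0 (red) and 24 against 12 hours (grey); dashed lines mark 1.5-fold. Csf3, Csf1 and Lif pass 1.5-fold against time 0 at both times, and between 12 and 24 hours Csf1 alone passes it, at -1.13.

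The order of levels per length changed with time. At time 0 Il34 led, followed by Csf1, then by Il33 (2.53 ± 0.234 CPM per kilobase, SD, n = 3) and Lif (2.2 ± 0.0894), whose libraries overlapped, and then by Csf3 (0.0533 ± 0.0246). At 12 hours Lif (8.46 ± 0.664 CPM per kilobase, SD, n = 3) stood above Il33 (2.44 ± 0.187) with no overlap, and Csf3 (1.75 ± 0.646) overlapped with Il33. At 24 hours the order was Il34, Csf1, Lif (6.64 ± 1.26), Csf3 (2.55 ± 0.407) and Il33 (2.14 ± 0.0592), of which only the last pair overlapped. Replicate 2 had the highest Csf1, Lif and Csf3 values at 12 and at 24 hours, as well as the highest Csf1 and Lif values at time 0.

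Receptors of these ligands were read from a list of 12 genes, of which 7 had a row in the table and 5 had enough counts to be tested. Csf2ra, Csf2rb, Csf2rb2, Csf3r and Lifr were not among the rows and were not analysed here, so that for Csf3 and Lif the ligand was measured without its own receptor. At 12 hours 2 of the 5 were called, both higher, and at 24 hours 1 was called higher and 1 lower, beside 1.60% and 28.8% of all tested genes, with medians of 0.07 and -0.08 on the log2 scale over the 5. Il1rl1, the IL-33 receptor ST2, had 10, 11 and 28 counts at time 0, 42, 47 and 41 at 12 hours, and 106, 149 and 117 at 24 hours. The 3 groups did not overlap and were ordered by time, with log2 fold changes of 1.55 at 12 hours (standard error 0.33, edgeR adjusted p = 0.0041) and 3.05 at 24 hours (standard error 0.30, edgeR adjusted p = 7.0e-07), and of 1.53 between them (standard error 0.19, edgeR adjusted p = 6.6e-06). In the comparison at 12 hours not all of its time 0 libraries reached the minimum of the filter on low counts. It passed there through the libraries of 12 hours, in which it is higher, so its call at 12 hours adds no support to the count at that time. Its level of 2.72 ± 0.327 CPM (SD, n = 3) at 24 hours remained the lowest of the 5.

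Il6st, the gp130 subunit on which IL-6 and LIF depend, had 64.6, 58.7 and 61.2 CPM at time 0, 105, 111 and 96.1 at 12 hours, and 58.3, 62.9 and 53.2 at 24 hours. It was thus higher in every library of 12 hours only, by a log2 fold change of 0.76 (standard error 0.05, edgeR adjusted p = 1.1e-08), and at 24 hours it was at -0.08 (standard error 0.06, edgeR adjusted p = 0.25), a difference between both times of -0.82 (standard error 0.06, edgeR adjusted p = 8.1e-08). Il6ra, the specific IL-6 receptor, went from 62.6 ± 4.45 CPM (SD, n = 3) at time 0 to 56.3 ± 1.03 at 12 hours and 31.7 ± 2.45 at 24 hours, and was called lower at 24 hours (log2 fold change -0.98, standard error 0.07, edgeR adjusted p = 2.5e-08). The IL-1 receptor Il1r1 and the shared subunit Il1rap were called in no comparison, and stood at -0.42 (standard error 0.13) and 0.30 (standard error 0.11) on the log2 scale at 24 hours.

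**Figure D4:**
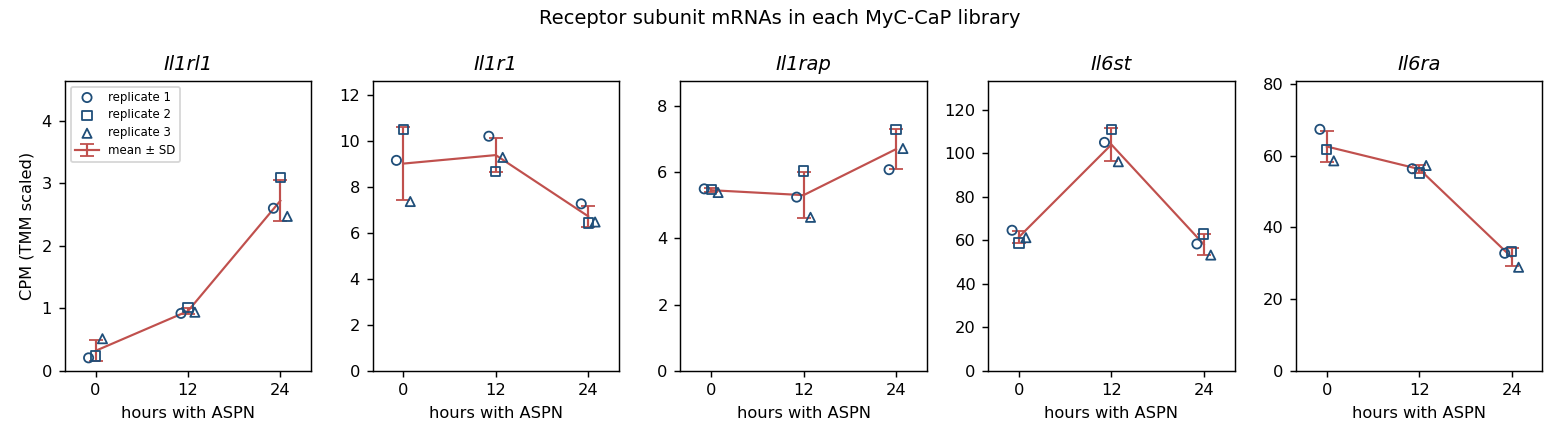
TMM-scaled CPM (vertical axis) of 5 receptor subunit mRNAs in each library against hours with ASPN (horizontal axis); open symbols are libraries and lines with bars are means ± SD (n = 3). Il1rl1 goes from a mean of 0.319 to 2.72 CPM, Il6st peaks at 104 CPM at 12 hours, and Il6ra ends at 31.7 CPM.

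The proteins that release IL-1 family ligands were read from a list of 9 genes, of which 6 were tested, with medians of 0.07 at 12 hours and 0.27 at 24 hours on the log2 scale. At 12 hours 1 was called, and at 24 hours 2 were called higher and 1 lower, beside 1.60% and 28.8% of all tested genes. Casp4 passed the filter on low counts only through the later libraries, in which it is high, so its call adds no support to these counts. Casp4, which encodes the inflammatory caspase-11 in mice, was called at both times, with 4, 7 and 1 counts at time 0, 18, 49 and 33 at 12 hours, and 30, 38 and 32 at 24 hours (log2 fold changes 3.15, standard error 0.54, edgeR adjusted p = 6.6e-04 and 3.14, standard error 0.49, edgeR adjusted p = 6.5e-05). The pore-forming gasdermins Gsdmd and Gsdme were called in opposite directions at 24 hours, at 1.27 (standard error 0.17) and -0.80 (standard error 0.09) on the log2 scale. Casp1 had 3 to 17 counts per library, and Nlrp3 0 to 3. Casp8, with 0.49 at 24 hours (standard error 0.07), Capn1 and Capn2 were not called.

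Of 4 decoys, antagonists and binding proteins, 2 were tested and 0 were called in any comparison, beside 1.60%, 28.8% and 25.7% of all tested genes at 12 hours, at 24 hours and between them, and 0 of their 6 adjusted p-values (edgeR) were 0.05 or less, the lowest being 0.12, with log2 medians of -0.15 at 12 hours and 0.16 at 24 hours. Of 14 further ligands of the IL-1 and IL-6 families, 7 were tested, with 0 called at 12 hours, where 1.60% of all tested genes were called, and 2 called higher (Clcf1 and Il18) and 1 called lower (Ctf1) at 24 hours, where 28.8% of all tested genes were called (12.0% higher and 16.8% lower), and log2 medians of 0.13 and 0.52. Il18 was called by a narrow margin, with 27 to 34 counts at time 0 and 32 to 63 at 24 hours (log2 fold change 0.77, standard error 0.31, edgeR adjusted p = 0.04), and these groups overlapped. Of 28 other growth factors and interleukins, 6 were tested, with 0 called at 12 hours and 1 in each direction at 24 hours, Il23a (5 to 11 counts at time 0 and 13 to 44 at 24 hours) higher and Il16 (16 to 34 and 3 to 13 counts) lower, again beside 1.60% and 28.8% of all tested genes, and log2 medians of -0.04 and -0.29. Both passed the filter on low counts through the group in which they are higher. Kitl, which encodes stem cell factor, had 150 ± 1.17 CPM (SD, n = 3) at time 0, and its 0.24 on the log2 scale at 24 hours (standard error 0.06) was not called.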

How the data were processed

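RNA-Seq of 9 MyC-CaP libraries was used, 3 at each of 0, 12 and 24 hours with 100 ng/mL recombinant ASPN. Per the labels and the methods, the authors prepared TruSeq mRNA libraries, sequenced paired ends, trimmed reads with Cutadapt, aligned them with STAR to GRCm38.p6 (GENCODE M24) and used featureCounts for counting, and they deposited raw counts of protein-coding genes with no normalization. The software was edgeR 4.0.16 under R 4.3.3, with limma 3.58.1 beneath it, and DESeq2 1.42.0 as an alternative. For each pair of times, genes passing filterByExpr entered the quasi-likelihood test of edgeR over the 6 libraries, with TMM scaling and no block, and a call needed both a p of 0.05 or less after Benjamini-Hochberg adjustment and a 1.5-fold change. No 2 libraries of a time were alike within counting error (chi-square divided by its degrees of freedom, 3.41 to 17.5). Lengths and 3′ UTRs came from GENCODE M21, which held 15374 of the 15384 identifiers.

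The 9 genes and the lists were chosen with earlier results of these data known. The rule for names covers the 9 genes, listed genes that were called, listed receptors of at least 1 CPM at some time, and the 2 genes nearest to each tested gene by log2 fold changes; Il1rn, Il1r2, Csf1r, Ptprz1, Il11, Osm, Casp1, Casp8, Capn1, Capn2, Nlrp3 and Kitl were named after their values were seen. Alternatives were DESeq2's Wald test, RLE, upper-quartile and total-count scaling, no filter, all 9 libraries in 1 fit, a replicate block, the adjusted p alone and leaving out each library. A loess correction for length and GC content (span 0.3) was added after the data were seen. On simulated counts with known changes the fit was tested before use.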

Additional observations from a re-analysis of the deposited data

Results flagged for a closer look

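Csf1 was singled out because its change differed between the times, at -1.13 on the log2 scale from 12 to 24 hours (standard error 0.10, edgeR adjusted p = 4.5e-07) and all 3 libraries of 24 hours below all 3 of 12 hours. The tests of single libraries standing apart do not apply to groups of 3.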

How the results depend on the processing

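Csf1, Csf3 and Lif stayed called against time 0 at both times under each of the 8 alternatives that refit the data and without each library in turn. Under these alternatives the log2 values of Csf1 were 2.48 to 2.50 at 12 hours and 1.13 to 1.63 at 24 hours and those of Lif 1.92 to 1.94 and 1.37 to 1.82, while Csf3 ranged over 4.67 to 5.33 and 5.22 to 5.89 without single libraries. From 12 to 24 hours, Csf1 was called under all of them, at -1.35 to -0.85. Here 2 of the 5 genes were called with upper-quartile factors and with the replicate block, where Csf3 joined Csf1 (0.59 in both), and 1 to 2 without single libraries. With the adjusted p alone, 4 of the 5 genes passed in each comparison, and 1178, 8119 and 8124 of all genes passed at 12 hours, at 24 hours and between them, in place of 182, 3298 and 2924. Total-count scaling turned Il34 at 24 hours to -0.10. The cause of these shifts was not tested. The split of all calls at 24 hours, 1374 higher and 1924 lower, was 698 and 3008 with total counts and 1456 and 1454 after the length and GC correction, and that between 12 and 24 hours, 1184 and 1740, was 484 and 2830 and 1285 and 1248. Il33 at 24 hours had adjusted p-values (edgeR, or DESeq2 for its Wald test) of 0.0014 to 0.099 and log2 values of -0.46 to -0.21 over the alternatives, short of 1.5-fold. Libraries sharing a number had deviations from their group means that correlated at -0.106 to 0.057, so the numbers were not taken to pair them, and 0, 0 and 1 of 3 libraries correlated best with their own number, and the block changed no other call of the 5 genes. Counts under the floor limit Csf2, Il1a and Il6, for which no change could be measured.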
